A study of Mus musculus with 7 samples.

Results

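The genes *C3*, *C1s1*, *C4b*, *Cfb*, *Hp*, *Gpx3*, *Cp* and *Lcn2*, of the complement system and the acute-phase response, were followed across mouse thymic epithelial cells (TECs). They were chosen by name, with earlier results of these data known, and all 8 are listed among the 20839 genes found in any of 7 single-cell libraries. The libraries hold 8453 cells, of which 8220 had no UMI (unique molecular identifier, 1 counted RNA molecule) of *Ptprc*, the gene of CD45. Each library came from 3 pooled thymi of female mice and was sorted as EpCAM+ CD45- from the light fraction of a Percoll gradient, so each group is 1 library of 1 pool. The *Aire* lineage tracing library came from C57BL/6 mice of 6 weeks that carry Aire-CreERT2-R26-CAG-Stopfl-zsGreen and had been given 2 mg of tamoxifen by gavage on alternate days over 10 days. In these mice the *Aire* promoter drives the Cre, so that ZsGreen labels cells that had *Aire* on while tamoxifen was present, and their descendants. The other 6 libraries came from C57BL/6 mice that had received 3 intraperitoneal treatments of 100 ug of antibody within a week. The 2 isotype control libraries (clone 2A3) were taken at week 2 (age 4 weeks) and week 10 (age 12 weeks), and the 4 anti-RANKL libraries (clone IK22/5) at weeks 2, 4, 6 and 10 (ages 4, 6, 8 and 12 weeks). RANKL is a signal that medullary TECs (mTECs) need, and the antibody removes many mature mTECs for a time, after which they return. No library came from mice that had received neither tamoxifen nor an antibody.

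Complement is a set of blood and tissue proteins that mark particles for removal. C1s, a protease of the classical pathway, cuts C4, the convertases made from C4 or from factor B cut C3, and the pieces of C3 coat the target. Acute-phase proteins are made mostly by the liver in inflammation, and several of them bind what microbes or damaged cells release: haptoglobin (*Hp*) binds haemoglobin, lipocalin 2 (*Lcn2*) binds bacterial iron carriers, ceruloplasmin (*Cp*) carries copper and oxidises iron, and *Gpx3* encodes a secreted glutathione peroxidase. In the thymic medulla, mTECs that make the chemokine CCL21 draw in developing T cells, *Aire*+ mTECs transcribe many genes of other tissues at low frequency, and tuft cells are a chemosensory type marked by *Trpm5*.

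The 8 genes lie on 6 chromosomes of the GRCm38 build, all annotated as protein-coding. *C3* (17:57203970-57228136, minus strand), *C4b* (17:34728380-34743882, minus strand) and *Cfb* (17:34856374-34862518, minus strand) share chromosome 17. *C1s1* is at 6:124530345-124542359 (minus strand), *Hp* at 8:109575128-109579172 (minus strand), *Gpx3* at 11:54902453-54910377 (plus strand), *Cp* at 3:19957054-20009145 (plus strand) and *Lcn2* at 2:32384633-32388252 (minus strand). *C4b* and *C1s1* each have a close copy in the mouse genome (*C4a* and *C1s2*), so reads could be split between the copies and their counts are uncertain to that extent.

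The promoters of *C3*, *C1s1* and *Gpx3* are shown because these are the members that were higher in the *Ccl21a* gate than in both other gates in the results that follow. They are the RefSeq sequences of GRCm38.p6 (250 bases before to 50 after a start site, 5′ to 3′ on the gene's strand), found for 5 of the 8 members, and the *C1s1* sequence is that of the first of its starts. Capitals mark matches on either strand to 4 motifs, those of C/EBP (TTNNGNAA), STAT (TTCNNNGAA), the TATA box (TATAAA) and the NF-kB consensus. The regions are chr17:57228087-57228386 (minus strand), chr6:124542310-124542609 (minus strand) and chr11:54902604-54902903 (plus strand).
C3: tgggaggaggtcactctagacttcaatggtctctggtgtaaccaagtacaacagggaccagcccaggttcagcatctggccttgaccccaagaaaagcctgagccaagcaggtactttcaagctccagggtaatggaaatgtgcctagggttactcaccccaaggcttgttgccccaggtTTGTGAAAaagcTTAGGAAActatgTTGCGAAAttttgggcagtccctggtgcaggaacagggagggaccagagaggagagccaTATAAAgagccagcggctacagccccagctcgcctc
C1s1: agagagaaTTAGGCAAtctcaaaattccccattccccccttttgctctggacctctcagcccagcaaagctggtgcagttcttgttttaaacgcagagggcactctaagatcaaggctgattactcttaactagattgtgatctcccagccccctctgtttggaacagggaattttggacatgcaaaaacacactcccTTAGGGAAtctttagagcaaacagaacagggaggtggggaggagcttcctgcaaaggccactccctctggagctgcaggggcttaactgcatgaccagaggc
Gpx3: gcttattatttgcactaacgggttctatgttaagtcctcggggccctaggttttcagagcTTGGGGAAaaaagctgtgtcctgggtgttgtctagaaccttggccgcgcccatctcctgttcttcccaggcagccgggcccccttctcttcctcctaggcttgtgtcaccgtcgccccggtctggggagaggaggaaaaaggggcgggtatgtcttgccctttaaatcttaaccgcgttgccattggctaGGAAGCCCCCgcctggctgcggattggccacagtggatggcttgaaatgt

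In the *C3* promoter, C/EBP matches stand at positions 181 to 188, 193 to 200 and 206 to 213 of the 300 bases, counted from 1 at the 5′ end, and a TATA match stands at 265 to 270. *C1s1* has C/EBP matches at 9 to 16 and at 199 to 206. *Gpx3* has a C/EBP match at 61 to 68 and a match to the NF-kB consensus at 251 to 260. Of 32851 mouse promoters of the same length, 40.7% hold a C/EBP match and 3.60% hold 3 or more, 13.6% hold a TATA match, 8.46% a match to the NF-kB consensus and 8.30% a STAT match, which is in none of the 3 shown. None of these marks overlap in the 3 sequences, and they describe letters only.

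Cells with *Ptprc* = 0 were gated on the deposited values, the natural log of 1 plus the UMIs per 10000 of the cell. *Ccl21a* above 4 held 3451 cells, *Aire* above 1.5 held 1769, *Trpm5* above 0 held 545, and 2685 cells passed no gate. The gates overlap: 124 cells passed those of *Ccl21a* and *Trpm5*, 66 those of *Aire* and *Trpm5*, and 41 those of *Ccl21a* and *Aire*. A single UMI can pass the *Aire* gate in a shallow cell, and 1 UMI passes the *Trpm5* gate at any depth. The *Trpm5* gate also held *Ccl21a*, at 5.05 to 113 UMIs per 10000 over the 7 libraries (median 75.2). *Pou2f3*, a tuft cell marker, was found in 11.6 to 52.9% of its cells, so this gate is not tuft cells alone. The gates carried most markers of their names. *Krt5* was at 14.8 to 24.4 UMIs per 10000 in the *Ccl21a* gate over the 7 libraries and at 0.612 to 3.68 in the *Aire* gate, *Fezf2* at 5.08 to 9.64 in the *Aire* gate and 1.45 to 2.96 in the *Ccl21a* gate, and *Dclk1* at 1.53 to 6.15 in the *Trpm5* gate and 0.117 to 0.635 in the *Aire* gate. *Ccl19*, which stands in the list of the *Ccl21a*-expressing cells, did not go with that gate: it was at 3.02 to 13.1 there (median 6.35) and at 6.64 to 11.2 in the *Aire* gate (median 7.09). *Epcam* was present in every gate (4.02 to 10.2). Total UMIs per library were between 3857876 and 22197691, with medians per cell of 4299.5 (anti-RANKL week 6) to 16809 (isotype week 2), and a pair of libraries shared 0 to 7 cell barcodes.

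*C3*, *C1s1* and *Gpx3* were higher in the *Ccl21a* gate than in the other 2 gates in 7 of 7 libraries, and *Cfb* was lower there than in the *Aire* gate in 7 of 7. The levels below are UMIs of a gene per 10000 UMIs of all cells of a gate in a library. *C3*, the central component of all complement pathways, was at 1.51 (lowest), 3.02 (median) and 6.07 (highest) in the *Ccl21a* gate, at 0.585, 0.715 and 1.03 in the *Aire* gate, and at 0.326, 1.24 and 1.77 in the *Trpm5* gate. The *C3* levels of the *Ccl21a* and *Aire* gates did not overlap, whereas the lowest *Ccl21a*-gate library, anti-RANKL week 2, lay below the highest 2 of the *Trpm5* gate, the tracing library and anti-RANKL week 6. The means were 3.42 ± 1.67 (SD, n = 7 libraries) in the *Ccl21a* gate and 0.757 ± 0.160 in the *Aire* gate. On the log2(level + 0.1) scale, which understates differences of low genes, limma with the library as a block gave a difference of 1.92 ± 0.24 (SE; adjusted p = 4.86e-06) between them, and of 1.57 ± 0.24 against the *Trpm5* gate (adjusted p = 7.91e-05).

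*C1s1*, the protease C1s, was the member whose level varied least in the *Ccl21a* gate, at 0.733, 0.795 and 0.871 (lowest, median and highest). In the *Aire* gate it was at 0.00838, 0.0371 and 0.166, and in the *Trpm5* gate at 0.0555, 0.256 and 0.510. Neither range reached the lowest library of the *Ccl21a* gate. The difference was 2.53 ± 0.23 (SE) on the log2 scale against the *Aire* gate (adjusted p = 1.74e-07, limma) and 1.62 ± 0.23 against the *Trpm5* gate (adjusted p = 3.74e-05).

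*Gpx3*, the secreted peroxidase, was at 6.84, 9.09 and 12.3 in the *Ccl21a* gate, with the tracing library lowest and anti-RANKL week 10 highest. It was at 1.24, 1.60 and 2.00 in the *Aire* gate and at 0.426, 1.83 and 3.75 in the *Trpm5* gate, again with no overlap. The log2 difference was 2.46 ± 0.24 (SE) against the *Aire* gate (adjusted p = 2.70e-07, limma) and 2.27 ± 0.24 against the *Trpm5* gate (adjusted p = 1.21e-06). With only the cells that passed exactly 1 gate, which leaves out the 124 in both, the latter was 3.52.

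*Cfb*, factor B of the alternative pathway, went the other way. It was at 0.00121, 0.00634 and 0.0227 in the *Ccl21a* gate (19 UMIs in 17 of 3451 cells) and at 0.0894, 0.133 and 0.582 in the *Aire* gate, with no overlap and with anti-RANKL week 4, whose *Aire* gate held 22 cells, as the highest. The log2 difference was -1.42 ± 0.25 (SE; adjusted p = 0.000151, limma). In the *Trpm5* gate *Cfb* was at 0 to 0.230, and the difference of *Ccl21a* from *Trpm5*, -0.47 ± 0.25, did not pass (adjusted p = 0.160). An exact sign-flip test over the 7 libraries (two-sided) gave p = 0.0156, the smallest it allows, for *Cfb* against the *Aire* gate and for each of *C3*, *C1s1* and *Gpx3* against both other gates.

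**Figure D1:**
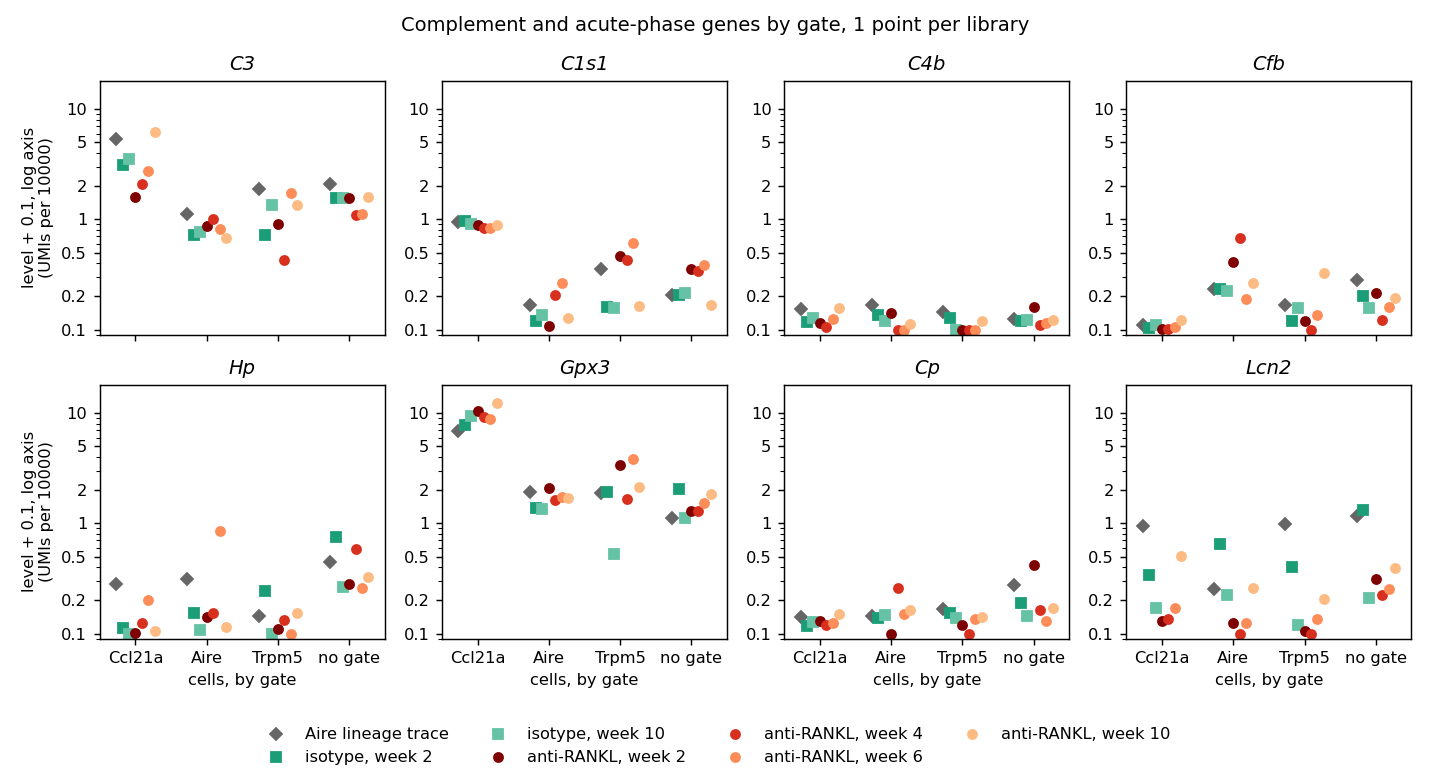
Levels of the 8 genes by gate, with 1 panel per gene and 1 point per library. The y axis is the level plus 0.1, in UMIs per 10000, on a log axis, and the x axis gives the gates and the cells of no gate. *C1s1* and *Gpx3* stand above every library of the other gates in the *Ccl21a* gate, where *Cfb* sits near the floor of the axis.

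The other 4 members showed no call. *Hp* was at 0 to 0.184 in the *Ccl21a* gate, 0.00773 to 0.754 in the *Aire* gate and 0 to 0.142 in the *Trpm5* gate, with medians of 0.0121, 0.0529 and 0.0326. It was lower in the *Ccl21a* than in the *Aire* gate in 7 of 7 libraries (exact sign-flip p = 0.0156), but by -0.53 ± 0.31 (SE) on the log2 scale, which did not pass in limma (adjusted p = 0.164), and its ranges overlapped. *Lcn2* was at 0.0290 to 0.848 in the *Ccl21a* gate and 0 to 0.543 in the *Aire* gate (log2 difference 0.35 ± 0.27 SE, adjusted p = 0.286, limma). *C4b* and *Cp* fell under the filter of a mean level of 0.05 over the sums, so 6 of 8 members were tested. Without that filter their differences between the *Ccl21a* and *Aire* gates were 0.05 ± 0.08 and -0.23 ± 0.16 on the log2 scale (adjusted p = 0.686 and 0.269, limma). *C4b* was at 0.00612 to 0.0568 in the *Ccl21a* gate, and *Cp* at 0.0161 to 0.0512, both with their highest level in the anti-RANKL week 10 library.

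Called genes were those with an adjusted p under 0.05 and a log2 difference of at least 1, over 11082 genes. Of the 6 members tested, 3 were called higher in the *Ccl21a* than in the *Aire* gate, where 5.80% of all genes were, and 1 was called lower, where 7.75% were. Against the *Trpm5* gate 3 were higher (2.54% of all genes) and 0 lower (4.89%), and 0 of the 6 had an unadjusted p under 0.05 with a lower level. Between the *Trpm5* and *Aire* gates limma called 0 members higher (4.26% of all genes) and 0 lower (3.24%). Of the 6, 2 had an unadjusted p under 0.05 there: *C1s1* was higher in the *Trpm5* gate in 7 of 7 libraries by 0.91 ± 0.23 (SE; adjusted p = 0.00483) and *Cfb* lower in 6 of 7 by -0.96 ± 0.25 (adjusted p = 0.00587), both under the limit on size, and exact sign-flip p-values were 0.0156 and 0.0312. With only the cells that passed exactly 1 gate, *C1s1* was higher by 0.20 (adjusted p = 0.317, limma). In the *Trpm5* gate it was at 0.256 to 0.510 in the 4 libraries that had 22, 58, 16 and 13 cells in common with the *Ccl21a* gate (the tracing library and anti-RANKL weeks 2, 4 and 6), and at 0.0555 to 0.0626 in the other 3, with 4, 1 and 10. The median log2 difference of all genes was 0.08, -0.05 and 0.12 in the 3 contrasts, against 1.14, 0.97 and 0.09 for the 6 members. *Gpx3* stood at 0.19 between the *Trpm5* and *Aire* gates (adjusted p = 0.558), and at -0.91 (adjusted p = 0.00249, limma) with only the cells that passed exactly 1 gate.

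Detection per cell was compared after thinning each cell to 2000 UMIs, which left out 177 cells with fewer, 116 of anti-RANKL week 4 and 61 of week 6. Pooled over libraries, a *C3* UMI was found in 38.7% of *Ccl21a*-gated cells (95% exact binomial interval 37.1 to 40.4), 11.2% of *Aire*-gated and 11.9% of *Trpm5*-gated cells. For *Gpx3* these shares were 50.6%, 15.0% and 18.8%, and for *C1s1* 14.9%, 0.908% and 5.65%. Cells with T cell UMIs were set beside the gates, but they cannot gauge RNA free in the suspension. The paper left out a small cluster resembling T cells, and the cells here match in number those it kept. These cells may thus be TECs or mixed droplets, with RNA of these genes of their own. In 69 cells with UMIs of *Ptprc* and of a *Cd3* gene (median depths per library of 3091.5 to 16587 UMIs before thinning), *C3* was found in 10.1% (4.18 to 19.8), *Gpx3* in 17.4% (9.32 to 28.4) and *C1s1* in 2.90% (0.353 to 10.1). In the *Aire* gate *Gpx3* and *C1s1* were at or below the share of these cells, so neither expression nor its absence is read from them. Whether these cells are T cells, TECs with stray RNA or droplets with a second cell was not tested. *C3* in the *Aire* and *Trpm5* gates and *Gpx3* and *C1s1* in the *Trpm5* gate were above that share but within its interval. That interval is wide, with 69 cells. For *C1s1* the pooled interval of the *Trpm5* gate (3.84 to 7.97) lay above that of the *Aire* gate (0.520 to 1.47). These intervals leave out the spread between libraries, on which the gates draw unequally, so they do not separate the gates. Per library the shares were 1.19 to 10.0% and 0 to 3.88%, which overlap. Before thinning, *C3* UMIs were in 66.1% of *Ccl21a*-gated and 37.3% of *Aire*-gated cells, whose median depths per library were 4372 to 14340.5 and 7267 to 21905 UMIs.

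The other members were sparse at this depth. *Lcn2* was found in 3.80% of *Ccl21a*-gated, 1.47% of *Aire*-gated and 3.49% of ungated cells. Of its 127 *Ccl21a*-gated cells, 98 were of the tracing library, so the pooled share is mostly that of 1 library. The medians over libraries were 1.44%, 0.971% and 2.84%. *Cfb* was found in 0.120% of *Ccl21a*-gated, 2.78% (2.06 to 3.66) of *Aire*-gated and 1.48% of ungated cells, so its *Aire*-gated share was the highest. *Hp*, *Cp* and *C4b* had their highest shares in ungated cells, at 1.82%, 1.59% and 0.758%. In the 69 cells with *Ptprc* and *Cd3* UMIs *Cfb*, *Hp*, *Cp* and *C4b* were each found in 0. This allows a share of up to 4.35% (3 counts of 69) and so gauges none of these shares. Over all 228 cells with a *Ptprc* UMI, thinned, *Cfb* was found in 0, which allows up to 1.32%. Before thinning it was found in 0 to 8.82% of these cells per library, against 3.67 to 27.4% of *Aire*-gated cells. In the tracing library its level in cells with *Ptprc* and *Cd3* UMIs was 0.164, on 5 UMIs, and that in the *Aire* gate 0.133. Intervals and limits cover counting error only.

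**Figure D2:**
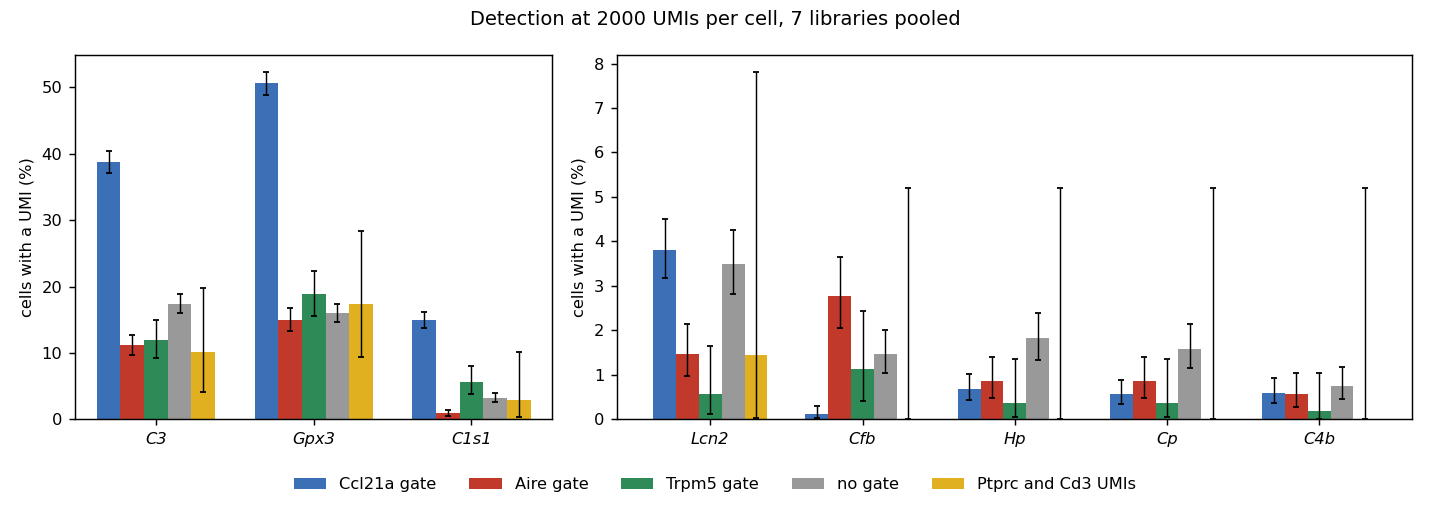
Share of cells with at least 1 UMI of each gene after thinning to 2000 UMIs, 7 libraries pooled, with the abundant members in the left panel and the sparse ones in the right, on separate linear y axes in percent. Bars are shares, whiskers 95% exact binomial intervals, colours the gates, and yellow the 69 cells with *Ptprc* and *Cd3* UMIs. *C3*, *Gpx3* and *C1s1* are found most often in the *Ccl21a* gate, and *Cfb* in the *Aire* gate.

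The *Ccl21a* gate also held more *Dcn*, a proteoglycan gene of fibroblasts. The summed level of the 7 mesenchyme markers was 1.93 to 5.07 in the *Ccl21a* gate, 0.410 to 2.66 in the *Aire* gate and 2.71 to 14.2 in ungated cells, and *Dcn* alone gave 1.72 to 4.53 in the *Ccl21a* gate while each of the other 6 markers was at or under 0.301 there. Without the cells holding a UMI of any of the 7 markers, which left 39.4 to 55.9% of *Ccl21a*-gated cells, the differences between the *Ccl21a* and *Aire* gates were 1.70 for *C3*, 2.40 for *C1s1*, 2.38 for *Gpx3* and -1.39 for *Cfb*, and all 4 were still called. The 6 cTEC markers summed to 29.0 to 44.2 in the *Ccl21a* gate, mostly *Ctsl*, and 1.74 to 9.84 in the *Aire* gate, and their part in the result was not tested. The 4 endothelial markers summed to at most 0.239 and the T cell markers to at most 0.436 in any gate.

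Within the *Ccl21a* gate, *Gpx3* went with the value of *Ccl21a* itself. Over the libraries *Gpx3* was at 1.23 to 4.15 in cells with a *Ccl21a* value of 4 to 5 and at 7.74 to 15.7 in cells above 5, higher above 5 in 7 of 7 libraries, and the 2 ranges did not overlap. *C3* was also higher above 5 in 7 of 7, at 0.969 to 4.23 against 1.59 to 7.02, with overlapping ranges. *C1s1* was higher above 5 in 6 of 7, the exception being anti-RANKL week 6, with 0.796 at 4 to 5 and 0.719 above.

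Other genes of these pathways were taken from fixed lists. Of 23 genes of complement activation, 6 had a level that could be tested, and 1 was called higher and 4 lower in the *Ccl21a* than in the *Aire* gate, with a median log2 difference of -1.19. The higher gene was *C1ra*, the protease that activates C1s (0.431 against 0.0186 as medians over libraries, log2 difference 1.94 ± 0.22 SE, adjusted p = 1.09e-06, limma). The lower ones were *C1qb* (-1.98), *Mbl2* (-1.28), *C1qc* (-1.25) and *C1qa* (-1.13), the recognition proteins of the classical and lectin pathways. The macrophage list, to whose cells C1q genes belong, summed to 3.68 to 8.79 in the *Aire* gate and 0.137 to 2.72 in the *Ccl21a* gate, with *Lyz2* at 3.21 to 7.04 in the former, and its part in the C1q values was not tested.

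Of 15 complement regulators and receptors 5 were tested, with 2 higher, 0 lower (limma, and 0 at an unadjusted p under 0.05 in that direction) and a median of 0.21. *Serping1*, the C1 inhibitor, was higher by 1.39 and *Clu* (clusterin), which binds the terminal complex, by 1.23 on the log2 scale. The C1 proteases tested (*C1s1* and *C1ra*) and their inhibitor were thus higher on the *Ccl21a* side and the C1q chains on the *Aire* side.

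Of 28 acute-phase genes 16 were tested, with 2 higher, 6 lower and a median of -0.57. *Crp* (C-reactive protein) was higher by 1.66 and *Steap4*, a metalloreductase, by 1.04. The largest decreases in the *Ccl21a* gate were those of *Hamp* (hepcidin, -2.70), the serum amyloid genes *Saa1* (-2.23), *Saa2* (-2.21) and *Saa3* (-2.18), and *Trf* (transferrin, -1.14). Against the *Trpm5* gate the list had 1 call higher, *Crp* (1.30), and 0 lower.

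Of 20 genes of cytokine signalling 17 were tested, with 7 higher, 1 lower and a median of 0.49. These were led by receptors of the IL-6 family and their targets, *Lifr* (3.04), *Socs3* (2.38), *Il6st*, which encodes gp130 (2.08), and *Osmr* (1.90), followed by *Nfkbiz* (1.55), and *Nfkbia*, the inhibitor of NF-kB, was lower by -1.17. *Lifr* was at 1.86 to 2.71 in the *Ccl21a* gate and 0.0548 to 0.715 in the *Aire* gate. Of 15 genes of glutathione and iron handling 11 were tested, with *Gpx8* higher (1.96) and *Ftl1*, the ferritin light chain, lower (-1.07). The medians of these lists compare with 0.08 for all genes, and each gene named from them had an adjusted p of at most 0.00957 (limma). Of all genes 5.80% were called higher and 7.75% lower between these gates. Against the *Trpm5* gate, where 2.54% and 4.89% were, complement activation had 1 higher and 2 lower and the regulators 2 and 1. Cytokine signalling had 3 and 0 there, and glutathione and iron handling 1 and 0.

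The genes whose log2(level + 0.1) went most closely with a member over the 21 sums of library and gate were named from 11073 genes. They were *Itga6*, *Ifit3* and *Angptl4* for *C3* (Pearson r = 0.936, 0.926 and 0.918), *Ifitm3*, *Wbp5* and *Pard6g* for *C1s1* (0.980, 0.978 and 0.973) and *Ablim1*, *Csrp2* and *Lbh* for *Gpx3* (0.945, 0.942 and 0.941). For *Cfb* they were *Kctd14*, *Thap4* and *Gm13539* (0.934, 0.931 and 0.920), for *Lcn2* *Gpx2*, *Chil4* and *Cotl1* (0.825, 0.776 and 0.750), and for *Hp* *Lce1b*, *Polr1a* and *Sftpc* (0.722, 0.696 and 0.693). Among the members r was 0.874 for *C1s1* and *Gpx3*, 0.755 for *C3* and *Gpx3*, 0.744 for *C3* and *C1s1* and -0.742 for *C1s1* and *Cfb*. Sums of 1 library share its depth and pool, and the gate differences given above enter these values, so they are descriptions. They do not show that genes vary together within a gate.

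Along the time course there is 1 library per time point, so levels are given with exact Poisson 95% intervals and no test. In *Ccl21a*-gated cells *C3* was at 3.02 (2.80 to 3.24) and 3.45 (3.19 to 3.73) in the isotype controls of weeks 2 and 10. After anti-RANKL it was at 1.51 (1.43 to 1.60) in week 2, 1.99 (1.87 to 2.12) in week 4, 2.65 (2.40 to 2.92) in week 6 and 6.07 (5.71 to 6.45) in week 10. The tracing library, without antibody, was at 5.22 (5.07 to 5.37). Weeks 2, 4 and 6 were thus below both controls, and week 10 was above every other library. Over the pooled controls the ratios were 0.472 (0.437 to 0.510), 0.622 (0.573 to 0.676), 0.828 (0.740 to 0.924) and 1.90 (1.75 to 2.05) at weeks 2, 4, 6 and 10, and 1.63 (1.53 to 1.73) for the tracing library. The libraries without anti-RANKL spanned 3.02 to 5.22, a spread that counting error does not cover.

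The share of *Ccl21a*-gated cells with a *C3* UMI, thinned, followed the same order after anti-RANKL, at 25.4%, 29.6%, 35.1% and 55.3%. The controls were at 33.1% and 46.6% and the tracing library at 53.9%, so week 6 lay between the controls on this measure. By 1.5-fold, *C3* was lower than both controls at weeks 2 and 4 and higher than both at week 10, and by 2-fold it was beyond both at no time point. It was 2-fold lower at week 2 with only the cells above a *Ccl21a* value of 5, and without the cells holding a mesenchymal UMI, where the ratio of week 6 over the controls was 1.06 in place of 0.828. In the isotype week 2 library 95 of 748 *C3* UMIs came from 1 cell. Without the cell with the most *C3* UMIs in each library, an alternative chosen after seeing the data, that control was at 2.68, weeks 4 and 6 at 1.97 and 2.60, and week 4 was no longer 1.5-fold lower than both.

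*C1s1* was at 0.795, 0.733, 0.736 and 0.784 at weeks 2, 4, 6 and 10 after anti-RANKL, against 0.871 and 0.806 in the controls and 0.848 in the tracing library. Its ratios over the controls were 0.944, 0.869, 0.873 and 0.931, with intervals that all include 1. Without the cells holding a mesenchymal UMI those of weeks 2, 4 and 6 were 1.18, 1.30 and 1.44. *Gpx3* was at 10.4, 9.09, 8.83 and 12.3 against 7.72 and 9.24 in the controls and 6.84 in the tracing library, so weeks 2 and 10 were above both controls and weeks 4 and 6 between them. Its ratios were 1.24, 1.09, 1.05 and 1.47. With only cells above a *Ccl21a* value of 5 those of weeks 2, 4 and 6 were 0.962, 0.854 and 0.867. Without the cell with the most *Gpx3* UMIs in each library, weeks 4 and 6 (8.98 and 8.60) were above both controls (7.08 and 8.55).

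*Lcn2* was at 0.0290, 0.0347, 0.0698 and 0.409 at weeks 2, 4, 6 and 10, against 0.242 and 0.0689 in the controls and 0.848 in the tracing library. The controls differed by more than their intervals (0.185 to 0.311 and 0.0367 to 0.118). In the week 10 library 72 *Lcn2* UMIs came from 18 cells, 40 of them from 1 cell, and 81.9% from 5 cells, and without that 1 cell the level was 0.183. *Lcn2* in that library was at 1.04 in cells with a *Ccl21a* value of 4 to 5 and at 0.145 above 5.

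**Figure D3:**
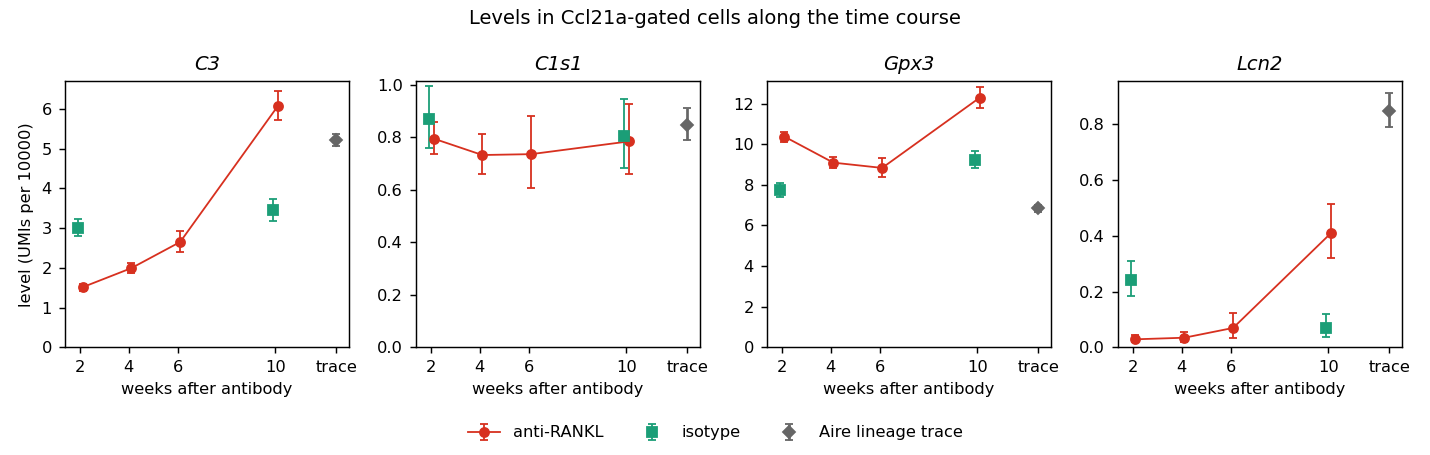
Levels of *C3*, *C1s1*, *Gpx3* and *Lcn2* in *Ccl21a*-gated cells, in UMIs per 10000 on linear axes from 0, against weeks after antibody. Points are single libraries (anti-RANKL joined by a line, isotype controls as squares, the lineage tracing library apart at the right), and bars are exact Poisson 95% intervals of counting error. *C3* is lowest at week 2 (1.51) and highest at week 10 (6.07) after anti-RANKL, while *C1s1* stays between 0.733 and 0.871 in every library.

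Counting all members that were at least 2-fold beyond both controls in the *Ccl21a* gate left few. A member counted as higher had to have more than 3 UMIs and controls below 3 UMIs were set to the level of 3, while one counted as lower had to have more than 3 UMIs in each control and was itself set to at least the level of 3. At week 2, 0 of 8 members were higher (1.09% of the 11082 genes) and *Lcn2* was lower (3.03%). At week 4, 0 were higher (2.16%) and *C4b* was lower (4.62%), on 3 UMIs. At week 6 *Hp* was higher (3.04%), on 16 UMIs in 12 cells, and 0 were lower (3.71%). At week 10 *C4b* was higher (2.92%), on 10 UMIs, and 0 were lower (1.62%). The tracing library, without antibody, had *Hp* at 0.184, above the 0.1015 of week 6, and *C4b* at 0.0538, near the 0.0568 of week 10. Ratios of *C4b* over the pooled controls were 0.297 (0.0517 to 1.19) at week 4 and 2.76 (1.01 to 7.67) at week 10. With no minimum of UMIs, an alternative chosen after seeing the data, *Cfb* was also lower at week 2 (4.26% of all genes), *Hp* also higher at week 4 (2.56%), on 12 UMIs, and *Cfb* also higher at week 10 (3.56%), on 4 UMIs. These background shares cover genes that passed the level filter, which *C4b* did not, and after thinning to 2000 UMIs no member was beyond both controls in either direction. No test was run, with 1 library per time point.

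Over all cells with *Ptprc* = 0 the picture was set beside the make-up of the libraries, in which *Ccl21a*-gated cells were 14.2% and 16.7% of the controls, 57.8%, 65.1%, 46.5% and 21.0% after anti-RANKL at weeks 2, 4, 6 and 10, and 66.4% of the tracing library. *C1s1* was at 0.149 and 0.176 in the controls and at 0.528, 0.558, 0.434 and 0.159 after anti-RANKL. *Gpx3* was at 2.25 and 2.31 in the controls and at 6.39, 6.39, 4.51 and 3.26. For both genes weeks 2, 4 and 6 stood above the controls, where the share of *Ccl21a*-gated cells was also above theirs. *C3* was at 1.19 and 1.33 in the controls, 1.37, 1.63, 1.65 and 1.74 after anti-RANKL, and 3.80 in the tracing library. In such sums, more cells of a type and more RNA per cell cannot be told apart, other than by the values within the gate given above.

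By the same rule over all these cells, *C1s1* and *Gpx3* were at least 2-fold higher than both controls at week 2 (5.59% of all genes) and at week 4 (7.77%), and *C1s1* at week 6 (5.79%). No member was lower at week 2 (8.14%) or week 6 (10.3%), and *C4b* and *Cfb* were lower at week 4 (13.3%). At week 10 no member was higher (0.235%) or lower (0.189%).

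The 1% of cells with the most held most of the UMIs of *Hp*, *Cp*, *C4b* and *Lcn2*. The 82 cells with the most UMIs of a gene, 1% of the 8220, held 88.9% of those of *Hp*, 76.3% of *Cp*, 70.0% of *C4b*, 68.4% of *Lcn2* and 49.2% of *Cfb*, but 18.8% of *Gpx3*, 17.8% of *C1s1* and 15.6% of *C3*. This share is set in part by how many cells hold the gene at all, from 152 for *C4b* and 224 for *Hp* to 3978 for *C3*. Only 1 cell held at least 10 UMIs of *C4b*. At least 10 UMIs of *Hp* were found in 29 cells, 19 of them ungated and spread over 7 libraries, with a highest count of 165. For *Lcn2* there were 57 such cells, 27 of them ungated, in 5 libraries, with a highest count of 202. Only 2 cells were in both sets, 6.90% of the *Hp* and 3.51% of the *Lcn2* cells. Levels of these genes in a gate can thus turn on 1 or a few cells.

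**Figure D4:**
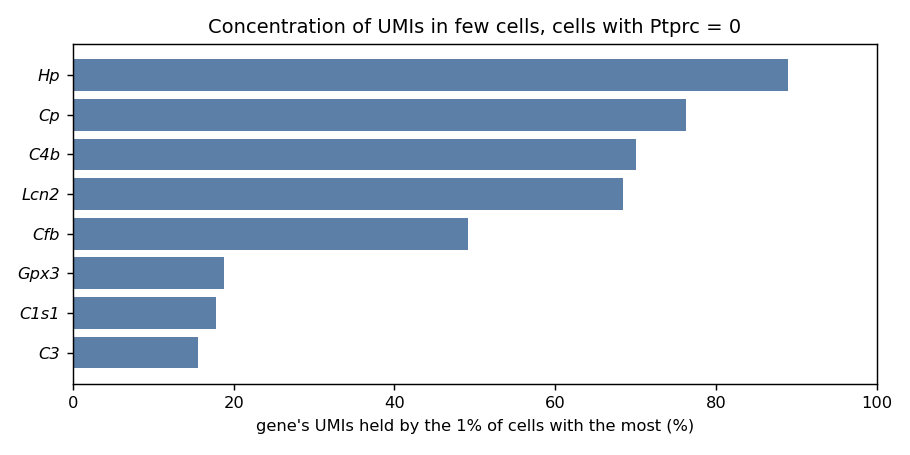
Share of each gene's UMIs held by the 1% of cells with *Ptprc* = 0 that have the most of them (82 of 8220 cells), on a linear x axis in percent, with 1 bar per gene. *Hp* is at 88.9% and *C3* at 15.6%.

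*C3*, *C1s1* and *Gpx3* were found together in *Ccl21a*-gated cells more often than independent detection within a library would give. At 2000 UMIs per cell, observed over expected cells with both genes were 1.05, 1.23 and 1.39 (lowest, median and highest of 7 libraries) for *C3* and *C1s1*, 1.10, 1.30 and 1.47 for *C3* and *Gpx3*, and 1.07, 1.33 and 2.12 for *C1s1* and *Gpx3*, above 1 in 7 of 7 libraries for each pair. The lowest, 1.05 for *C3* and *C1s1* at anti-RANKL week 6, was 14 cells against 13.3 expected, and these ratios carry no intervals. With all UMIs of each cell the medians were 1.17, 1.11 and 1.14. *C3* and *C1s1* were above 1 in 6 of 7 libraries when cells were thinned to 4000 UMIs (lowest 0.983) and with cells that passed exactly 1 gate (lowest 0.883). *Ccl21a* values differ within the gate and *Gpx3* and *C3* go with them, and the part of this in the co-detection was not tested. Within this gate, pairs with a sparse member reached the minimum of 5 expected cells in the tracing library only. The ratio there was 1.67 for *C3* and *C4b*, 1.72 for *C3* and *Hp*, 1.19 for *C3* and *Lcn2*, 1.33 for *C4b* and *Gpx3*, 1.36 for *Hp* and *Gpx3*, 1.36 for *Gpx3* and *Lcn2* and 1.07 for *C1s1* and *Lcn2*. Among ungated cells *C3* and *Lcn2* reached it in isotype week 2, with a ratio of 1.40. *C3* and *Gpx3* reached it among ungated cells in 7 libraries (0.953 to 1.36, median 1.17, above 1 in 6). In the *Aire* gate that pair reached it in 4 (0.746 to 1.75, median 1.17, above 1 in 3), so its co-detection was not particular to the *Ccl21a* gate. At least 2 of the 8 members were found in 25.0 to 45.1% of *Ccl21a*-gated cells per library, with the tracing library (44.8%) and anti-RANKL week 10 (45.1%) highest, and in 1.61 to 27.3% of *Aire*-gated cells, where the 27.3% is 6 of 22 cells.

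**Figure D5:**
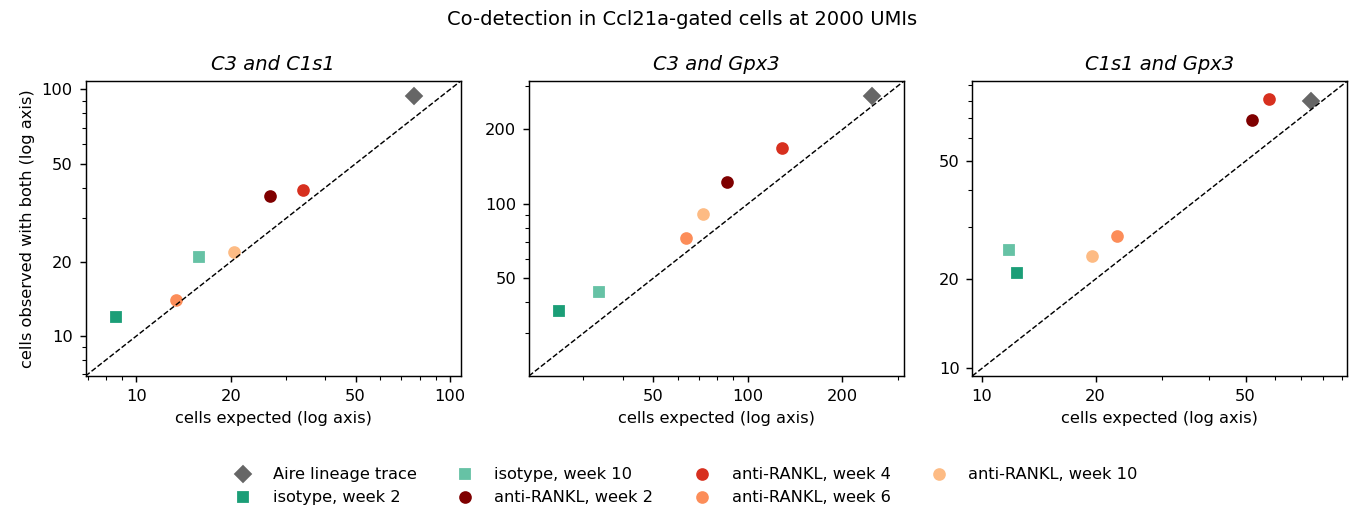
Cells of the *Ccl21a* gate with UMIs of both genes of a pair, at 2000 UMIs per cell, against the number expected if detection were independent, with 1 point per library and both axes on log scales. The dashed line marks equal numbers. All 7 libraries lie above it for each of the 3 pairs, with medians of 1.23, 1.30 and 1.33.

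In the lineage tracing library the *Ccl21a*-gated cells could be divided by ZsGreen, taken to be the transcript listed there under the name GFP. The 326 cells with a ZsGreen UMI (median 10290 UMIs) had *C3* at 4.63 (4.42 to 4.84) and the 549 without (median 8121) at 5.71 (5.50 to 5.93), whose intervals do not overlap. Thinned shares were 48.5% (42.9 to 54.0) and 57.2% (52.9 to 61.4), with overlapping intervals. *Gpx3* was at 6.12 (5.88 to 6.37) and 7.44 (7.20 to 7.69), also with no overlap, *C1s1* at 0.753 and 0.927, *Lcn2* at 0.869 and 0.831 and *Hp* at 0.258 and 0.123. All these values come from 1 library, so the differences have no replicate check, and a cell without a ZsGreen UMI may still carry the label.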

How the data were processed

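Single-cell RNA-seq libraries of sorted thymic cells were made on the 10x platform and sequenced on an Illumina HiSeq. Per the submitters' notes and methods, the authors aligned reads with Cell Ranger 2.2.0 to mm10 (the ZsGreen transcript was added for the tracing library) and filtered cells and genes in Seurat 2.3.4. They also left out a small cluster resembling T cells. No step against doublets is named in the sources used here, and none was applied. The authors deposited natural log values, ln(1 + x), where x is a gene's UMIs per 10000 UMIs of its cell. The methods give another scale factor, but the values of each cell sum to 10000 after inversion. Whole UMIs were recovered in every cell (tolerance 0.001). Cells with *Ptprc* = 0 were gated and their UMIs summed per library and gate (at least 10 cells). Genes with a mean level of at least 0.05 were tested with limma 3.58.1 in R 4.3.3 on log2(level + 0.1), with the library as a block, a trend in the variance and Benjamini-Hochberg adjustment over 11082 genes. Replicates of a gate contrast are libraries that differ in treatment, age and genotype. No test was run between isotype and anti-RANKL libraries, since each time point of a treatment is 1 library. Levels have exact Poisson intervals and shares exact Clopper-Pearson binomial intervals, at 95%, for counting error only. Detection and co-detection were computed after thinning cells to 2000 UMIs. The fitting was tested on simulated data. The 10760 columns of 2 tables that combine libraries were not used. Genes were named as the 8 members, up to 5 genes in each direction of each pathway list called between the *Ccl21a* and *Aire* gates, and the 3 genes most alike to each member. The members and lists were chosen with earlier results of these data known. *C4a*, *Masp1*, *C7*, *Vsig4*, *Apcs*, *Serpina1a* and *Cebpd* were not analysed here. Alternatives changed the pseudocount, the filter, the block, the centring, the gates, the depth, the totals, the cells kept and the libraries kept.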

Additional observations from a re-analysis of the deposited data

Results flagged for a closer look

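*Lcn2* differed between the *Ccl21a* and *Aire* gates in opposite directions in the isotype and anti-RANKL libraries. The mean log2 difference of *Ccl21a* from *Aire* was -0.66 in the 2 isotype libraries and 0.47 in the 4 anti-RANKL libraries, with the same sign in every library of each group. The difference between the groups was not tested. The tracing library, which had no antibody treatment, had the highest difference of the 7 (1.91; 0.848 against 0.153). The *Aire*-gate levels after anti-RANKL rest on 3, 0 and 2 UMIs at weeks 2, 4 and 6, and at week 2 the gates were close (0.0290 against 0.0252). The level in the *Aire* gate was 0.543 and 0.124 in the isotype libraries and 0 to 0.160 after anti-RANKL. In anti-RANKL week 10 the sign rests on cells near the limit of the gate: *Lcn2* was at 1.04 at a *Ccl21a* value of 4 to 5, but at 0.145 above 5, under the 0.160 of the *Aire* gate.

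Cells with a *Ptprc* UMI, which the comparisons leave out, held some members at levels whose intervals lay above those of the same cells in both isotype controls. In anti-RANKL week 10 *Hp* was at 0.419 UMIs per 10000 against at most 0.0265 in the controls, from 15 UMIs in 2 cells, and *Lcn2* at 3.07 against at most 0.235, from 110 UMIs in 6 cells, 96 of them in 1 cell. *C3* was at 1.20 in that library and 1.45 in the tracing library, against at most 0.554. *Gpx3* was at 3.47 in anti-RANKL week 10 and 2.74 in week 2, against at most 1.41.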

How the results depend on the processing

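*C3*, *C1s1*, *Gpx3* and *Cfb* kept their direction between the *Ccl21a* and *Aire* gates under every alternative run, and without 1 library at a time the log2 differences were 1.71 to 2.09, 2.45 to 2.68, 2.39 to 2.56 and -1.52 to -1.21. With a pseudocount of 1, *C1s1* (0.76) and *Cfb* (-0.26) fell under the limit on size between these gates, so 0 members were called lower, as did *C1s1* between the *Ccl21a* and *Trpm5* gates (0.55), which follows from the scale. That setting called 104 genes higher and 115 lower between *Ccl21a* and *Aire* (643 and 859 as reported), 46 and 69 between *Ccl21a* and *Trpm5* (282 and 542) and 69 and 47 between *Trpm5* and *Aire* (472 and 359). The mean of the deposited log values, with no limit on size, called 2450 and 2655, 1693 and 2693, and 2795 and 1919. *Aire* above 0 gave 317 and 596 between *Ccl21a* and *Aire* and 327 and 143 between *Trpm5* and *Aire*. Cells of exactly 1 gate gave 486 and 760 between *Ccl21a* and *Trpm5* and 767 and 645 between *Trpm5* and *Aire*, thinning 425 and 674 and then 700 and 623, and leaving out cells with mesenchymal UMIs 424 and 642 and then 718 and 498. Centring on the median of all genes gave 379 and 479 between *Trpm5* and *Aire*, 44.2% higher against the 56.8% reported.

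Between *Trpm5* and *Aire*, 1 member (*C1s1*) was called higher with thinning and with mean log values, and 0 to 1 without 1 library (1 without isotype week 10 and without anti-RANKL week 10). There 1 member (*Cfb*) was called lower with centring, cells of exactly 1 gate, no cells with mesenchymal UMIs, cells of any *Ptprc* and mean log values, and 0 to 1 without 1 library (1 without the tracing library, isotype week 10, anti-RANKL week 6 or week 10). Values that changed sign, none of them called as reported, were *Hp* between *Ccl21a* and *Trpm5* at -0.024 with cells of any *Ptprc*, -0.0016 with mean log values and -0.14 to 0.21 without 1 library (-0.14 without the tracing library); between *Trpm5* and *Aire*, *C3* at -0.063 with *Aire* above 0, -0.090 with exactly 1 gate, -0.33 thinned and -0.021 with mean log values, *Gpx3* at -0.20, -0.91 and -0.065 under the first 3 of these, and *Lcn2* at 0.035 with a pseudocount of 1, 0.032 with cells of any *Ptprc*, 0.00079 with mean log values and -0.34 to 0.14 without 1 library. The causes were not tested.

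Of member values beyond both controls in the *Ccl21a* gate (2 higher and 2 lower as reported), thinning left 0 and 0, *Ccl21a* above 5 gave 4 lower, a fold of 1.5 gave 6 and 5, no minimum of UMIs (chosen after seeing the data) 4 and 3, and leaving out cells with mesenchymal UMIs 0 higher. Over all cells with *Ptprc* = 0 (5 and 2), thinning gave 5 lower, and a fold of 1.5 and no mesenchymal UMIs each 4 lower. Ratios over the controls that crossed 1 were *C3* at week 6 (1.06), *C1s1* at weeks 2, 4 and 6 (1.18, 1.30 and 1.44) and *Lcn2* at week 10 (0.295) without cells with mesenchymal UMIs, *Gpx3* at weeks 2, 4 and 6 (0.962, 0.854 and 0.867) and *Lcn2* at week 10 (0.622) with *Ccl21a* above 5, and *Gpx3* at week 6 (0.975) thinned. Co-detection of *C3* and *Gpx3* had a median of 1.11 with all UMIs. The gate contrasts pair the gates within each library. Between treatment groups no test was run. A paired analysis within 1 time point was not possible, because each arm has at most 1 library there and the pair leaves no spread to test against. A fit that takes weeks 2 and 10, where the arms match in week and age, as 2 pairs of 1 effect was not run. Chosen after seeing the data, leaving out the 1 cell with the most UMIs of a gene in each library gave *C3* ratios of 0.501, 0.662, 0.871 and 2.00 over the controls and an *Lcn2* ratio of 1.39 at week 10. *C4b* and *Cp* had too few UMIs for the level filter.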
